A study of Mus musculus with 8 samples.

Results

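The genes described here are 9 parts of 2 enzyme systems that make reactive gases and oxygen species in brain tissue, of 54532 genes listed in all. Cybb, Cyba, Ncf1, Ncf4, Rac2 and Hvcn1 belong to or serve the phagocyte NADPH oxidase, Nox4 is a further NADPH oxidase, and Nos1 and Nos3 are nitric oxide synthases. They were matched by gene symbol, from a list chosen with earlier results of these data known. RNA-seq was carried out on 8 libraries of brain tissue from male C57BL/6 mice on Day 21. The RS group (2 libraries) had restraint stress without stroke, and the PTS + RS group (2 libraries) had photothrombotic stroke, a light-induced clot in vessels of the right cortex, followed by restraint stress; these 4 libraries are labelled cortex. The other 4 libraries all came from PTS + RS mice, of which 2 had RGFP109, a compound the labels call an HDAC3 inhibitor, given under the skin at 60 mg/kg once a day for 2 weeks by the labels (a figure legend of the study gives a longer course), and 2 had NaCl. In both of these groups replicate 1 is labelled cortex and replicate 2 amygdala. Neither sham-operated nor stroke-only mice were sequenced here, so every comparison is between stressed groups. The sources used here do not say whether a library holds 1 mouse or several.

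The phagocyte NADPH oxidase moves electrons from NADPH across a membrane onto oxygen and so makes superoxide. Its catalytic core is a pair of membrane proteins, gp91phox (Cybb) and p22phox (Cyba), which is silent until cytosolic subunits, among them p47phox (Ncf1) and p40phox (Ncf4), and the small GTPase Rac2 join it, and the proton channel Hvcn1 offsets the charge that the electrons carry. In the brain these genes are known mainly from microglia and other phagocytes, whereas Nos1 is the synthase of neurons and Nos3 that of the endothelium.

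Library depth, as the total count over genes, lay between 15902013 and 21712033, with 3.59% to 4.55% of counts on mitochondrial genes. Several libraries stood apart in their regional markers. Of 6 olfactory bulb markers the summed level was 878 CPM (counts scaled to a common library size) in NaCl replicate 1 and 7.81 to 15.1 CPM in the other 7 libraries, in which S100a5 had 0 counts. Choroid plexus markers (8 genes) summed to 1614 and 45.5 CPM in PTS + RS, 1824 and 3805 CPM in RS, 1513 CPM in RGFP109 replicate 1 and 14.4 to 46.0 CPM in the other 3 libraries. The 7 amygdala markers did not separate the labels, with 91.7 and 113 CPM in the amygdala-labelled libraries and 99.3 and 59.3 CPM in the cortex-labelled libraries of the same experiment. Striatum markers (8 genes) summed to 1019 and 1160 CPM in the amygdala-labelled libraries against 113 and 206 CPM, and cerebral cortex markers (8 genes) were also higher there, at 792 and 710 CPM against 533 and 372 CPM. Tissue names are therefore used below only as labels.

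The promoters of 3 oxidase genes that rose after stroke, and of Nos1, which did not pass the test, are printed to let genes that moved together be read side by side. Each line gives, in RefSeq on GRCm38.p6 and on the strand of the gene, the 250 bases before the annotated start and the 30 bases from it. The windows were chrX:9469295-9469574 (minus strand) for Cybb, chr8:122432911-122433190 (minus strand) for Cyba, chr5:134229596-134229875 (minus strand) for Ncf1 and chr5:117866589-117866868 (plus strand) for Nos1. The RefSeq starts of Cybb and Nos1 lay inside the longer gene spans of the deposited tables. Capitals mark GAGGAA, a purine-rich sequence bound by PU.1, an ETS factor of the myeloid lineage, searched on both strands.
Cybb: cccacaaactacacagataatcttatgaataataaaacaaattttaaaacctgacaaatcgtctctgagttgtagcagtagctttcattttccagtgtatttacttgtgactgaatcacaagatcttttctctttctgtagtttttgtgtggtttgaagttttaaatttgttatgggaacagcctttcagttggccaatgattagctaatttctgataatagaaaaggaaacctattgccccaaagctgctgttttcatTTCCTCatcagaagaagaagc
Cyba: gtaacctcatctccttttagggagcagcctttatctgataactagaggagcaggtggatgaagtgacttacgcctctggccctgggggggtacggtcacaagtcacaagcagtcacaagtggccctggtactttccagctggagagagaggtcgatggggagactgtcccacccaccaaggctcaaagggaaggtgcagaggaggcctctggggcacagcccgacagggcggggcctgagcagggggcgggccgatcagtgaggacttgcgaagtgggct
Ncf1: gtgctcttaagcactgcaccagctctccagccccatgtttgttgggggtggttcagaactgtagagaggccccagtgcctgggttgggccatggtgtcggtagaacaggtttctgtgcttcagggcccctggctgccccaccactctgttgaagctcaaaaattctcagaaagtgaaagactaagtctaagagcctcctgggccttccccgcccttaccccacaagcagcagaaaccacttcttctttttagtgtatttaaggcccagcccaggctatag
Nos1: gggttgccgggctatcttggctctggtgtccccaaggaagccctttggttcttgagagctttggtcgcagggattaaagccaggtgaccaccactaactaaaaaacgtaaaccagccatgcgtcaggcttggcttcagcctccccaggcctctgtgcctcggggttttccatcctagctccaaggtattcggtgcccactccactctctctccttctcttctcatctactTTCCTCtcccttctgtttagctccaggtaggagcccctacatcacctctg

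The 6 letters were found once in Cybb, from base 10 of the transcript, and once in Nos1, from 20 bases before the start, both as the reverse complement. Cyba and Ncf1 had no match, nor did Nox4. Shorter or variant forms of these letters were not searched, so an unmarked stretch is not shown to lack a PU.1 site. Of all 32851 RefSeq windows of this length 26.0% held the letters, so a match in 2 of 5 windows describes only these sequences. Ncf4, Rac2, Nos3 and Hvcn1 had no window in the table used.

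After stroke and restraint, the oxidase genes of phagocytes were higher than after restraint alone, and the nitric oxide synthases did not pass the test. Cybb, Rac2, Ncf1, Hvcn1 and Cyba, 5 of the 9 genes, passed the threshold upward, an adjusted p under 0.05 with a log2 fold change of at least 1. Of all 17581 genes tested, 2.12% passed it upward and 0.091% downward, and none of the 9 passed it downward. For 6 of the 8 genes tested both PTS + RS libraries lay above both RS libraries, as for 25.7% of all tested genes, while none lay wholly below, as for 24.5%. Nox4 had too few counts to be tested. Every fold change and adjusted p given here comes from edgeR (quasi-likelihood, Benjamini-Hochberg over all tested genes) unless another tool is named.

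**Figure D1:**
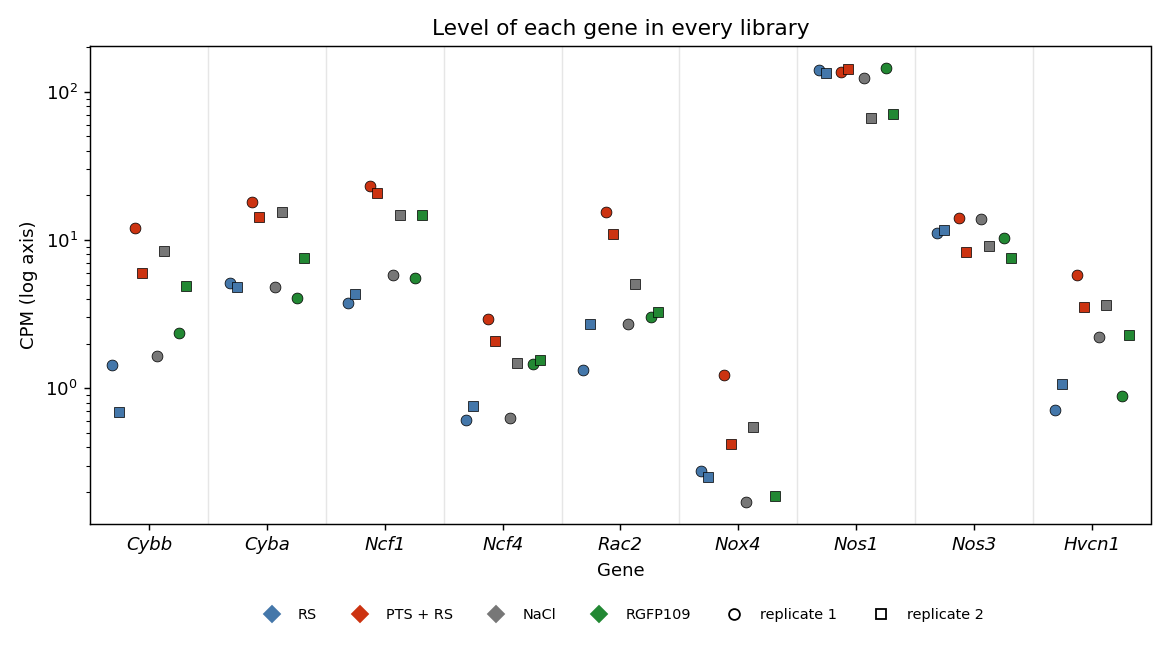
The level of each of the 9 genes in every library, in CPM on a log axis; colours give the groups and symbols the replicate numbers, and Nox4 in RGFP109 replicate 1 (0 counts) is not drawn. In PTS + RS, Cybb, Cyba, Ncf1, Ncf4, Rac2 and Hvcn1 lie above RS in both libraries, and Nos1 is lowest in the 2 amygdala-labelled libraries, at 71.0 and 66.7 CPM. The RS and PTS + RS libraries were normalized separately from the other 4.

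In the membrane core, Cybb (ENSMUSG00000015340, chrX:9435252-9487771, minus strand) stood at 12.1 and 5.98 CPM in the PTS + RS libraries and at 1.43 and 0.694 CPM in the RS libraries. The groups did not overlap, although the PTS + RS libraries were far apart. Its log2 fold change was 3.06 with an SE of 0.459 (adjusted p = 0.0162), the highest of the 8 genes tested. With limma-voom in place of edgeR the adjusted p of Cybb was 0.0549, past the threshold no longer. Cyba (ENSMUSG00000006519, chr8:122424776-122432930, minus strand), which stabilizes gp91phox, stood at 18.1 and 14.4 CPM against 5.13 and 4.80 CPM. The replicates lay close together in both groups, and the log2 fold change of Cyba was 1.71 with an SE of 0.186 (adjusted p = 0.00428).

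Among the cytosolic subunits Ncf1 (ENSMUSG00000015950, chr5:134220053-134229625, minus strand), the organizer that carries the others to the membrane, stood at 23.1 and 20.8 CPM in PTS + RS and at 3.75 and 4.35 CPM in RS. It had the lowest adjusted p of the 9 genes, 7.57e-04, at a log2 fold change of 2.44 with an SE of 0.167. Ncf4 (ENSMUSG00000071715, chr15:78244801-78262580, plus strand), which binds a membrane lipid of phagosomes, stood at 2.92 and 2.09 CPM against 0.607 and 0.757 CPM. These are 50 and 35 counts against 11 and 12, and the log2 fold change of Ncf4, 1.87 with an SE of 0.391, missed the threshold (adjusted p = 0.0517). Ncf4 also missed it with DESeq2 (adjusted p = 0.0785), limma-voom (adjusted p = 0.0719) and RLE normalization in edgeR (adjusted p = 0.0523). In edgeR it passed with no filter on low counts (adjusted p = 3.74e-04) and with a replicate block (adjusted p = 0.0438). Leaving out 1 library gave log2 fold changes of Ncf4 from 1.61 to 2.09.

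The GTPase Rac2 (ENSMUSG00000033220, chr15:78559167-78572783, minus strand), found chiefly in blood-derived and myeloid cells, stood at 15.4 and 11.0 CPM in PTS + RS and at 1.32 and 2.71 CPM in RS. Its log2 fold change was 2.72 with an SE of 0.340 (adjusted p = 0.00772). Rac1, its counterpart in most cell types, stood at 298 and 313 CPM against 282 and 270 CPM, a log2 fold change of 0.15 with a 95% interval of -0.03 to 0.32. The interval of Rac2 ran from 1.92 to 3.52 and did not overlap that of Rac1; the difference between the GTPases was not itself tested. Hvcn1 (ENSMUSG00000064267, chr5:122206804-122242297, plus strand) stood at 5.78 and 3.53 CPM against 0.717 and 1.07 CPM, and its log2 fold change was 2.38 with an SE of 0.388 (adjusted p = 0.0219). Of the exonic bases of Hvcn1, 44.2% lie opposite exons of Tctn1 on the other strand, and 11.1% of those of Ncf1 opposite Gtf2ird2; the sources used here do not state whether the counting used strand. Neither neighbour passed the threshold, with log2 fold changes of -0.28 for Tctn1 and 0.03 for Gtf2ird2.

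Nox4 (ENSMUSG00000030562, chr7:87246096-87398710, plus strand), an oxidase that needs p22phox but no cytosolic subunits, had 21 and 7 counts in PTS + RS and 5 and 4 counts in RS. With no filter on low counts its log2 fold change was 1.60 with an SE of 0.721 (adjusted p = 0.237). The 95% interval ran from 0.19 to 3.02. That fit took its spread almost wholly from all genes together, so the interval does not reflect how far apart the PTS + RS libraries of Nox4 lay. At this depth no difference in Nox4 was established.

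Nos1 (ENSMUSG00000029361, chr5:117781032-117958840, plus strand) stood at 137 and 142 CPM in PTS + RS and at 140 and 134 CPM in RS, so that the groups overlapped. Its log2 fold change was 0.03 with a 95% interval of -0.15 to 0.20 (adjusted p = 0.896), the narrowest interval of the 8. Nos3 (ENSMUSG00000028978, chr5:24364810-24384474, plus strand) stood at 14.0 and 8.26 CPM against 11.1 and 11.7 CPM. Of its exonic bases 25.2% lie opposite Gm15587 and 7.12% opposite Atg9b, so that the same doubt about strand holds for the Nos3 values; the log2 fold changes of these neighbours were -1.26 and -0.06, neither past the threshold. The PTS + RS libraries of Nos3 enclosed those of RS, and the interval of the Nos3 difference, -0.62 to 0.56 around -0.03 (adjusted p = 0.968), was wide. Nos2, the inducible synthase of activated macrophages, had 16 and 8 counts against 15 and 5, with a log2 fold change of 0.28 and a 95% interval of -1.22 to 1.77. The signs of the Nos1 and Nos3 changes turned when single libraries were left out.

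Because levels of different genes compare only per length, the order within each group was read from the deposited FPKM (fragments scaled to gene length and library size). In the RS libraries the order of mean FPKM was Nos1 (12.2 ± 0.396, SD, n = 2), Cyba (4.75 ± 0.222), Nos3 (2.74 ± 0.102), Ncf1 (1.10 ± 0.117), Rac2 (0.648 ± 0.316), Ncf4 (0.336 ± 0.0527), Hvcn1 (0.250 ± 0.0705), Cybb (0.182 ± 0.0895) and Nox4 (0.0310 ± 0.00192). The libraries of Ncf4 and Hvcn1, and of Hvcn1 and Cybb, overlapped, and all other neighbours were apart. In the PTS + RS libraries Cyba came first (15.5 ± 2.47 FPKM), ahead of Nos1 (12.4 ± 0.367), Ncf1 (5.95 ± 0.431) and Rac2 (4.21 ± 0.982). There Nos3 (2.67 ± 0.968), Cybb (1.55 ± 0.739), Hvcn1 (1.30 ± 0.439) and Ncf4 (1.23 ± 0.282) followed, with neighbours that overlapped from Nos3 to Cybb onward, and Nox4 was last (0.0963 ± 0.0666). Within the core pair, Cyba stood at 13.8 to 17.3 FPKM in these libraries and Cybb at 1.03 to 2.07 FPKM.

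The wider pathway was described from 7 lists with 63 genes, of which 55 were tested. The list of 16 activators of the phagocyte oxidase also holds Arhgdib, which restrains Rac-family GTPases and is not an activator. Of these 16 genes 12, Arhgdib among them, passed the threshold upward, and no gene of the 7 lists passed it downward. The median log2 fold change of the activator list was 1.90, against -0.0015 over all tested genes. At the cell surface Clec7a, the receptor for fungal glucan, had the greatest change of the list, from 0.367 ± 0.285 CPM (SD, n = 2) in RS to 22.7 ± 7.75 CPM in PTS + RS, a log2 fold change of 5.97 with an SE of 0.449. The antibody receptor Fcgr1 and its signalling chain Fcer1g rose by log2 fold changes of 2.86 and 3.03, and the integrin chains Itgam and Itgb2, which together form complement receptor CR3, by 2.13 and 2.68. Inside the cell the kinases Syk (1.16) and Btk (2.19), the exchange factors Vav1 (2.20) and Dock2 (2.27), which load Rac, and the enzymes Pik3cg (1.67) and Plcg2 (1.21) rose as well, as did Arhgdib (1.28), which holds Rac-family GTPases in the cytosol. Adjusted p-values of the 12 genes ran from 3.76e-04 to 0.0252. The 4 activators that did not pass had log2 fold changes of 0.42 (Prkcd), 0.13 (Prex1), 0.05 (Vav3) and -0.22 (Prkcb).

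In 5 other lists no gene passed the threshold. Of 10 genes for Nos2 and the partners of nitric oxide synthases, the median log2 fold change was 0.04, with Nos1ap, the adaptor of Nos1, at -0.19 and Nosip at 0.06. The 6 tested genes of the tetrahydrobiopterin cofactor had a median of -0.05, the 9 of arginine and methylarginine supply one of 0.19, and of the 8 genes from nitric oxide to cyclic GMP 7 were lower, with a median of -0.10. Only 2 of 9 genes of other NADPH oxidases had enough counts, and Nox1 had at most 2 counts in these 4 libraries. Cybc1, the chaperone of the core pair, had a log2 fold change of 0.14.

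**Figure D2:**
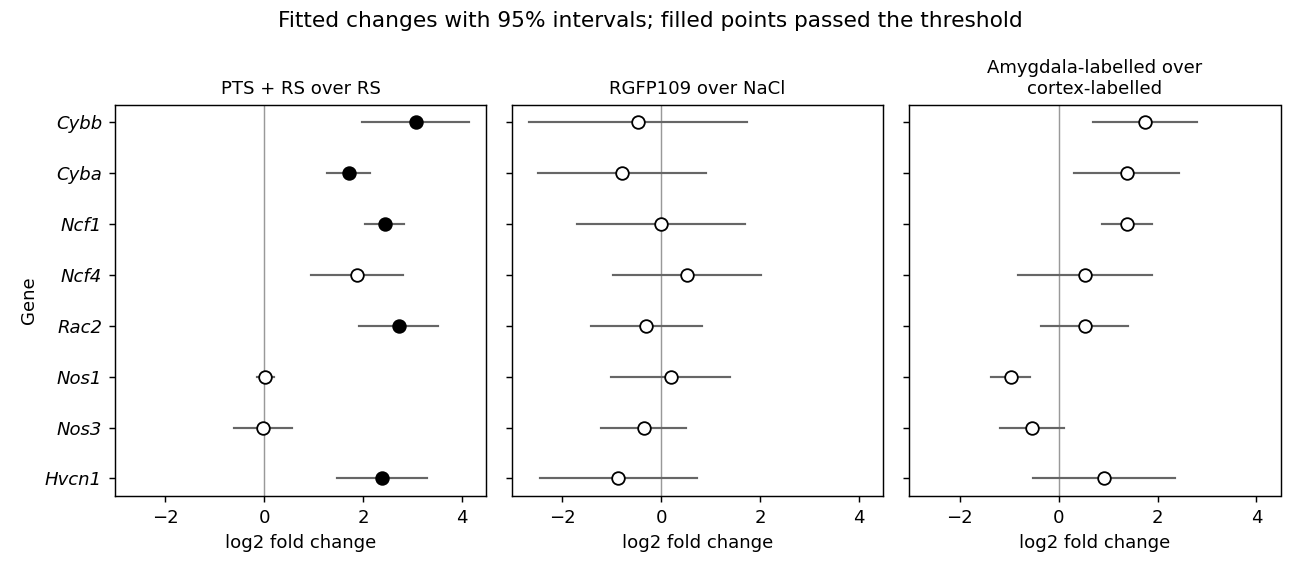
Fitted log2 fold changes of the 8 tested genes with 95% intervals (lines) in the 3 comparisons, PTS + RS over RS, RGFP109 over NaCl and amygdala-labelled over cortex-labelled libraries, 2 libraries a group; filled points passed the threshold. In the first panel 5 points are filled, from 1.71 for Cyba to 3.06 for Cybb, and none is filled in the other 2, where the RGFP109 intervals all include 0.

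In bulk tissue, more cells of a type and more RNA per cell cannot be told apart, and microglia markers moved with the oxidase genes. All 16 microglia markers were higher in PTS + RS, 15 of them past the threshold, with a median log2 fold change of 2.03. Their summed level was 1876 and 1624 CPM in PTS + RS and 423 and 378 CPM in RS. Markers of macrophages at the brain's borders (8 genes) summed to 168 and 121 CPM against 39.7 and 35.8 CPM, and 2 of the 7 tested passed the threshold. Neutrophil markers (10 genes) stayed between 0.315 and 0.993 CPM in all 4 libraries, with Ly6g and Elane at 0 counts, and monocyte markers (5 genes) summed to 1.98 and 1.50 CPM against 0.386 and 0.252 CPM. B cell markers (6 genes) summed to 6.77 and 4.79 CPM against 1.38 and 1.14 CPM, T and NK cell markers (8 genes) to between 2.02 and 2.92 CPM, endothelial markers (12 genes) to between 323 and 396 CPM, and the 7 markers of Nos1 interneurons to between 650 and 716 CPM. Astrocyte markers (10 genes) were all higher, 2 of them past the threshold, at 7927 and 6731 CPM against 4558 and 4592 CPM with a median log2 fold change of 0.48. Oligodendrocyte markers (10 genes) summed to 6938 and 7805 CPM against 6333 and 5710 CPM, with 9 higher and none past the threshold. The part of cell numbers in the changes was not tested.

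Set against the summed microglia markers of the same library, the oxidase genes moved apart. Cyba was 0.965% and 0.884% of that sum in PTS + RS and 1.21% and 1.27% in RS, lower in both libraries. Cybb, at 0.647% and 0.368% against 0.339% and 0.184%, and Ncf1, at 1.23% and 1.28% against 0.886% and 1.15%, were higher in both. Rac2 (0.818% and 0.674% against 0.313% and 0.718%), Hvcn1 (0.308% and 0.217% against 0.169% and 0.284%) and Ncf4 (0.156% and 0.129% against 0.143% and 0.200%) overlapped between the groups. These directions hold for this sum, which its most abundant genes dominate. Tmem119, 1 of the 16, stood at 31.9 and 34.8 CPM in PTS + RS and 15.1 and 16.8 CPM in RS. P2ry12 stood at 52.0 and 45.7 CPM against 26.5 and 21.6 CPM. Both rose less than Cyba, so against either alone Cyba was higher in PTS + RS. The median log2 fold change of the 16, 2.03, was above the 1.71 of Cyba. With 2 libraries a group no permutation test of these shares can pass 0.05, and they are given as a description.

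**Figure D3:**
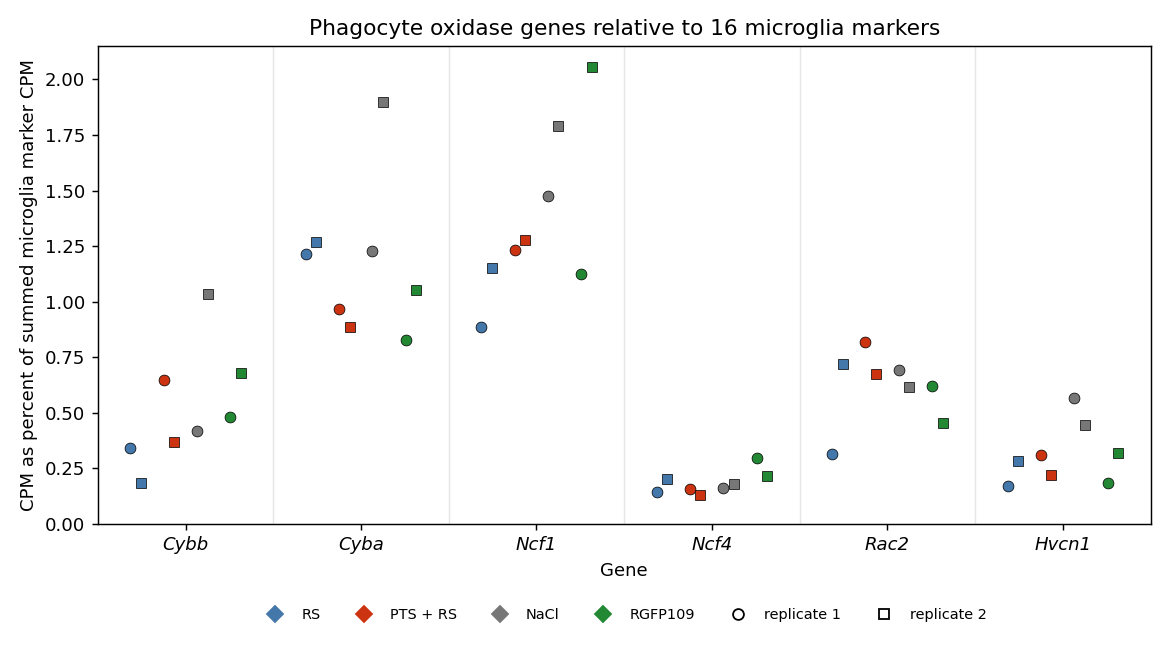
The CPM of 6 phagocyte oxidase genes as a percent of the summed CPM of 16 microglia markers in the same library (linear axis from 0), for all 8 libraries; colours give the groups and symbols the replicate numbers. Cyba is lower in PTS + RS than in RS on this scale, Cybb and Ncf1 are higher, and Rac2, Hvcn1 and Ncf4 overlap.

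The second experiment asked how RGFP109 changes expression in PTS + RS mice. None of the 9 genes, and no gene at all, passed the threshold between RGFP109 and NaCl (0% of 17565 genes in either direction with edgeR). With no adjustment 88 genes had a p under 0.05 upward and 118 downward, none of them among the 9, and DESeq2 and limma-voom called no gene either. For all 8 tested genes the groups overlapped, where 12.8% of all genes lay wholly higher with RGFP109 and 13.8% wholly lower. Each group held 1 library of each tissue label, and all 8 genes lay apart between the labels, as given below. Their overlap between RGFP109 and NaCl followed from that and says nothing of the drug. Leaving out NaCl replicate 2 gave 15 genes higher and 78 lower, none of them among the 9. Intervals were wide. That of Cyba, with a log2 fold change of -0.80, ran from -2.49 to 0.90, and that of Nos1, at 0.19, from -1.01 to 1.39. This fit had no term for the tissue label, so that differences between labels count as spread. With a replicate block in edgeR the log2 fold change was -0.66 for Cyba (unadjusted p = 0.106) and 0.16 for Nos1 (unadjusted p = 0.410). Hvcn1 had the lowest unadjusted p of the 8 there, 0.078, at a log2 fold change of -0.96. No gene passed the threshold with the block.

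Within a replicate number the compared libraries share a tissue label, and there 1 library stood against 1, with no test of the treatment. In the libraries labelled amygdala, Cyba was at 7.62 CPM with RGFP109 and 15.6 CPM with NaCl, a log2 ratio of -1.03 with a 95% exact binomial interval of -1.32 to -0.75, which covers counting error only. Cybb there was at 4.91 against 8.48 CPM (log2 ratio -0.79, interval -1.16 to -0.42) and Rac2 at 3.27 against 5.06 CPM (log2 ratio -0.63, interval -1.10 to -0.17). Ncf1 in these libraries stood at 14.9 CPM with RGFP109 and 14.7 CPM with NaCl, with an interval of -0.22 to 0.26 around 0.02. In the libraries labelled cortex, the log2 ratios of Cyba (-0.25), Cybb (0.51), Rac2 (0.16) and Ncf1 (-0.07) all had intervals that included 0, and NaCl replicate 1 was the library with olfactory bulb markers.

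Hvcn1 was lower with RGFP109 in both pairs, at 0.888 against 2.22 CPM under the cortex label (log2 ratio -1.32, interval -2.32 to -0.41) and 2.29 against 3.64 CPM under the amygdala label (log2 ratio -0.67, interval -1.23 to -0.12). Its neighbour on the other strand, Tctn1, had a fitted log2 fold change of -0.72 in the same comparison, not past the threshold. Ncf4, at 23 and 11 counts, was higher under the cortex label (log2 ratio 1.22, interval 0.13 to 2.41) and at 33 and 27 counts under the amygdala label (log2 ratio 0.07). Nos3 was at 10.3 against 13.9 CPM and 7.62 against 9.08 CPM. Its log2 ratios were -0.43 (interval -0.73 to -0.14) and -0.25 (-0.57 to 0.07). Nos1 was at 146 against 123 CPM and 71.0 against 66.7 CPM, with log2 ratios of 0.24 (0.15 to 0.32) and 0.09 (-0.02 to 0.20). Nox4 had 0 and 4 counts with RGFP109 and 3 and 10 with NaCl. Microglia markers summed to 490 and 723 CPM with RGFP109 and 394 and 819 CPM with NaCl, so that they too were lower with RGFP109 under the amygdala label and higher under the cortex label. As a share of that sum under the amygdala label, Cyba was 1.05% with RGFP109 and 1.90% with NaCl, Cybb 0.678% and 1.04%, Rac2 0.452% and 0.617%, and Ncf1 2.05% and 1.79%. Hvcn1 was 0.317% and 0.445% there, and Ncf4 0.213% and 0.179%. Under the cortex label Cyba was 0.828% with RGFP109 and 1.23% with NaCl, Cybb 0.479% and 0.419%, and Rac2 0.621% and 0.694%. Ncf1 was 1.13% and 1.47% under that label, Hvcn1 0.181% and 0.564%, and Ncf4 0.298% and 0.159%. Of the 54 pathway genes tested none passed the threshold.

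**Figure D4:**
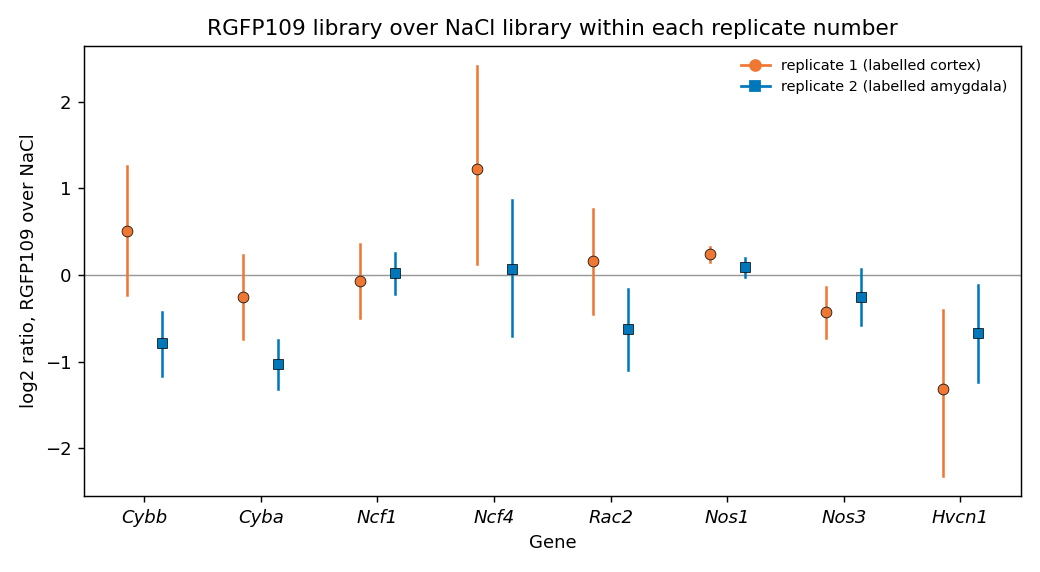
The log2 ratio of the RGFP109 library to the NaCl library for 8 genes within replicate 1 (labelled cortex) and replicate 2 (labelled amygdala), with 95% exact binomial intervals that cover counting error only. Under the amygdala label Cyba (-1.03), Cybb (-0.79), Rac2 (-0.63) and Hvcn1 (-0.67) lie below 0 with their intervals. Under the cortex label Hvcn1 (-1.32) and Nos3 (-0.43) lie below 0 and Ncf4 (1.22) and Nos1 (0.24) above 0 with theirs.

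The same 4 libraries also allowed the amygdala label to be set against the cortex label, a split that is the same as that by replicate number. No gene passed the threshold with edgeR (0% of 17565 in either direction), although 1197 genes upward and 773 downward had an unadjusted p under 0.05, and DESeq2 called 267 and 82. None of the 8 tested genes overlapped between the labels. The 6 phagocyte oxidase genes were higher in both amygdala-labelled libraries, as were 21.6% of all genes, and both synthases were lower, as were 22.4%. Some gaps were narrow. Ncf4 stood at 1.54 and 1.47 CPM against 1.46 and 0.626 CPM, and Rac2 at 3.27 and 5.06 CPM against 3.04 and 2.73 CPM. Hvcn1 stood at 2.29 and 3.64 CPM against 0.888 and 2.22 CPM. Ncf1 stood at 14.9 and 14.7 CPM against 5.52 and 5.80 CPM (log2 fold change 1.38, SE 0.191, adjusted p = 0.217). Cybb stood at 4.91 and 8.48 CPM against 2.35 and 1.65 CPM (log2 fold change 1.74, SE 0.404, adjusted p = 0.303), and Cyba at 7.62 and 15.6 CPM against 4.06 and 4.84 CPM (log2 fold change 1.38, SE 0.408, adjusted p = 0.367). DESeq2 called Cybb (adjusted p = 0.0421) and Ncf1 (adjusted p = 0.0011).

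Nos1 stood at 71.0 and 66.7 CPM under the amygdala label and 146 and 123 CPM under the cortex label (log2 fold change -0.97, SE 0.152, adjusted p = 0.238), and Nos3 at 7.62 and 9.08 CPM against 10.3 and 13.9 CPM (log2 fold change -0.54, adjusted p = 0.509). Endothelial markers summed to 322 and 311 CPM against 404 and 378 CPM, with 9 of 12 lower, and all 7 tested mural cell markers were lower, none of either list past the threshold; their part in the Nos3 values was not tested. Gm15587, opposite Nos3, had a log2 fold change of -1.49 here, also not past the threshold. Hvcn1 (log2 fold change 0.92), Ncf4 (0.54) and Rac2 (0.53) had intervals that included 0. The number of calls rested on single libraries. Without NaCl replicate 1, the library with olfactory bulb markers, Cybb, Cyba, Ncf1 and Hvcn1 passed the threshold upward and Nos1 downward, at a log2 fold change of -1.07. Without RGFP109 replicate 1, Cybb, Cyba and Ncf1 did. Each of these fits leaves 1 cortex-labelled library against 2, takes its spread from the 2 amygdala-labelled libraries and assumes that the lone library varies like them. Of the microglia markers 14 of 16 were higher under the amygdala label, with a median log2 fold change of 0.65 and none past the threshold. Relative to their sum, Ncf1 was 2.05% and 1.79% against 1.13% and 1.47%, Cybb 0.678% and 1.04% against 0.479% and 0.419%, and Rac2, lower in both, 0.452% and 0.617% against 0.621% and 0.694%. Cyba (1.05% and 1.90% against 0.828% and 1.23%), Hvcn1 (0.317% and 0.445% against 0.181% and 0.564%) and Ncf4 (0.213% and 0.179% against 0.298% and 0.159%) overlapped on that scale. The Rac2 gap was narrow and holds for the sum only. P2ry12 of the same list stood at 25.2 and 23.4 CPM against 32.5 and 25.8 CPM, and relative to it alone Rac2 was higher. Relative to Tmem119 (27.9 and 29.4 CPM against 20.4 and 18.2 CPM) Rac2 overlapped. The 7 markers of Nos1 interneurons summed to 773 and 806 CPM under the amygdala label and to 706 and 2123 CPM under the cortex label. Whether tissue, dissection or replicate set these differences cannot be told apart.

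Across all 8 libraries, the genes whose log2 CPM followed Cyba most closely, among 12401 genes with a mean of at least 5 CPM, were Kbtbd3 (Pearson r = 0.984), Rhoj (0.980), Gpnmb (0.979), Apobec1 (0.976) and Ctsz (0.972). For Nos1 they were Gabra5 (0.992), Tspan18 (0.989), Rfx2 (0.987), Pcdh20 (0.981) and Kdr (0.981). In all, 99 genes reached an r of 0.9 with Cyba and 134 with Nos1. For this measure all 8 libraries were normalized together. The 8 points come from 2 experiments and share group, label and library, so that these values describe the libraries only.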

How the data were processed

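RNA-seq of mouse brain tissue was measured in 8 libraries, 2 a group. The authors aligned reads to GRCm38 with STAR 2.4.0 and counted them per gene with HTSeq 0.6.1 (per the labels). The deposited counts are whole, unnormalized reads per gene and library, and the deposited FPKM values, made by the authors, are that count over the gene's length and over 1 factor per library. The paper names RefSeq genes (mm10), whereas the deposited tables list Ensembl genes; the annotation release, and whether counting used strand, are not given in the sources used here; the labels name a directional library kit and the paper another. Normalized per-library columns (4 for the second table and 4 for a block of its genes), and the authors' log2 fold changes and p-values, were not used. The second table (28229 genes) names no identifiers, so its genes were matched to the first by coordinates, all uniquely and with the same symbol. The coordinates of all 9 genes equal those of GENCODE M21 on GRCm38.

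Counts were filtered with filterByExpr, normalized by TMM within each table and tested by edgeR 4.0.16 (quasi-likelihood) in R 4.3.3, with Benjamini-Hochberg adjustment over all tested genes; a gene passed with an adjusted p under 0.05 and a change of 1 or more on the log2 scale, up or down. The code was tested on simulated data. CPM are counts scaled to the TMM library size; FPKM served to compare genes. Ratios of 2 libraries have 95% exact binomial intervals. Alternatives were RLE normalization, no filter, DESeq2 1.42.0, limma-voom (limma 3.58.1), a replicate block (for the tissue labels, which are the replicate numbers, a treatment term instead) and leaving out each library; where that left 1 library in an arm, it was assumed to vary like the other group. P-values measure the spread between 2 libraries a group, which may be technical. The unfiltered fit of PTS + RS against RS is an exception. Its spread was shared almost wholly across genes, and its p-values were far lower.

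The 9 genes, 7 pathway lists and 17 marker lists were chosen with earlier results of these data known. Named were all 9 genes, pathway genes past the threshold, fixed pathway genes (Rac1, Cybc1, Nos2, Nox1, Nos1ap and Nosip; 1 more is not reported here), the 5 genes most like Cyba and Nos1, and, after their values were seen, genes on the opposite strand and the 4 activators not past the threshold. Promoter windows were cut to 280 bases after the files were read. Replicate numbers marked a shared tissue label in the RGFP109 experiment, where deviations of same-numbered libraries correlated at 0.299; in PTS + RS against RS they correlated at 0.0352 and share only a number.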

Additional observations from a re-analysis of the deposited data

Results flagged for a closer look

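For 3 genes the log2 ratio of RGFP109 to NaCl had opposite signs under the cortex and the amygdala label: Cybb (0.51 and -0.79), Rac2 (0.16 and -0.63) and Ncf1 (-0.072 and 0.018). Each ratio rests on 1 library a group, and the difference between labels was not tested. The 95% counting interval included 0 for all 3 genes under the cortex label and for Ncf1 under both labels.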

How the results depend on the processing

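For PTS + RS against RS, the 5 calls upward among the 9 genes were 5 or 6 under each alternative except limma-voom, where Cybb missed the threshold. Over all genes, no filter gave 604 higher and 155 lower calls in place of 373 and 16, DESeq2 35 lower and the replicate block 32 lower; without 1 library the calls ranged from 308 (RS replicate 2) to 626 (PTS + RS replicate 2) higher and from 15 to 192 (PTS + RS replicate 1) lower, and pathway calls downward from 0 to 1. With the replicate block, where the replicates share only a number, Ncf4 passed (adjusted p = 0.0438). Log2 fold changes without 1 library ran from -0.013 to 0.055 for Nos1 and from -0.46 to 0.30 for Nos3.

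For RGFP109 against NaCl, leaving out 1 library gave 0 to 15 higher and 0 to 78 lower genes, and log2 fold changes from -1.22 to 1.15 for Cybb, -1.41 to 0.29 for Cyba, -0.89 to 0.83 for Ncf1, -0.68 to 0.22 for Rac2 and -0.42 to 0.69 for Nos1. Ncf1 was also above 0 with RLE normalization (0.0059), no filter (0.0052), DESeq2 (0.0040) and limma-voom (0.037). The replicate block changed no other call among the 9 genes in this comparison or in PTS + RS against RS.

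For the amygdala against the cortex label, which is the replicate number itself, a treatment term took the place of the block and changed no call among the 9 genes. No filter gave 13 genes higher, 1 of them in the pathway lists, and DESeq2 267 higher and 82 lower, with 2 of the 9 genes and 4 pathway genes higher. Without 1 library the counts ran from 0 to 1396 higher and 0 to 1116 lower (the highest without RGFP109 replicate 1, 744 and 397 without NaCl replicate 1, and 0 without either replicate 2 library), from 0 to 4 higher and 0 to 1 lower among the 9 genes, and from 0 to 9 higher and 0 to 6 lower among pathway genes. The causes were not tested. With 2 libraries a group and few counts for Ncf4, Nox4 and Hvcn1, moderate changes of these genes would not be detectable.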
